A study of Rattus norvegicus with 6 samples.

Results

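The endoplasmic reticulum (ER) chaperones and targets of the transcription factor XBP1 are taken here as 10 genes: Xbp1, Hspa5, Hsp90b1, Calr, Dnajb9, Dnajc3, Sdf2l1, Pdia4, Creld2 and Herpud1. They were chosen by name, and every probe set annotated to one of them was taken. Each gene had 1 such probe set, so the 10 members were 10 probe sets, out of 14217 genes on the array and 10372 genes tested. All 10 passed the filter on dim probe sets. Liver RNA came from Sprague-Dawley rat offspring aged 3 weeks, at weaning, and was hybridised to Affymetrix expression arrays, 1 array per sample. Of the 6 arrays, 3 were from offspring whose mothers ate a high fat diet and 3 from offspring whose mothers ate standard chow, called control below. The labels give no litter, sex or diet composition, nor the weeks over which the dams were fed, and the offspring are grouped by what their mothers ate.

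The ER is where secreted and membrane proteins fold, and hepatocytes, which make most plasma proteins, carry a large secretory load. Unfolded protein in the ER activates the sensors IRE1, PERK and ATF6. IRE1 splices Xbp1 mRNA into the form that encodes the active factor, and XBP1 and cleaved ATF6 bind ER stress elements in the promoters of chaperone genes. Hspa5 encodes BiP, the HSP70 chaperone of the ER. Several of the other members encode its partners or folding enzymes of the same compartment.

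The ER stress element, ERSE, is the known meeting point of NF-Y with ATF6 or XBP1, and it is shown here because most members carry it. Its letters, CCAAT, then 9 bases of any kind, then CCACG, were searched on both strands of the 250 bases before each gene's start in RefSeq's rat assembly GRCr8. They stood upstream of 6 of the 10 members, Hspa5, Hsp90b1, Calr, Dnajc3, Creld2 and Xbp1. Of all 33469 promoters searched, 22 held them, or 0.0657%. The members were chosen by name as ER chaperones and XBP1 targets, so a high share follows from that choice and is not a test. The matches are given below in the motif's own direction, 5′ to 3′, with its fixed letters in capitals. Those of Hspa5, Dnajc3 and Xbp1 run with the gene, those of Calr and Creld2 run against it, and Hsp90b1 has one of each.
Hspa5, chr3:38452973-38452991 (+ strand): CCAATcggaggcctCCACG
Hsp90b1, distal, chr7:23012451-23012469 (- strand): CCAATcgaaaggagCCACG
Hsp90b1, proximal, chr7:23012347-23012365 (+ strand): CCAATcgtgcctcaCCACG
Calr, chr19:40213135-40213153 (- strand): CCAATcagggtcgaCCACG
Dnajc3, chr15:102432534-102432552 (+ strand): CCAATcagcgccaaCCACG
Creld2, chr7:121789239-121789257 (- strand): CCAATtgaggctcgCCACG
Xbp1, chr14:84604558-84604576 (+ strand): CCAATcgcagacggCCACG
Herpud1 instead held the shorter ERSE-II, ATTGG, then 1 base of any kind, then CCACG, which 14 of the 33469 promoters (0.0418%) hold.
Herpud1, chr19:10614821-10614831 (- strand): ATTGGgCCACG
The third element searched, the XBP1-preferred UPRE (TGACGTGG), was in none of the 10 windows and in 0.52% of all promoters. Dnajb9, Sdf2l1 and Pdia4 held none of the 3 elements in full within these windows. The fixed parts of ERSE are common alone: CCACG was in 27.2% of all promoters and in 9 of 10 members, and CCAAT in 34.0% and in 10 of 10. A match is a description of the letters and not evidence of binding in these livers.

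**Figure D1:**
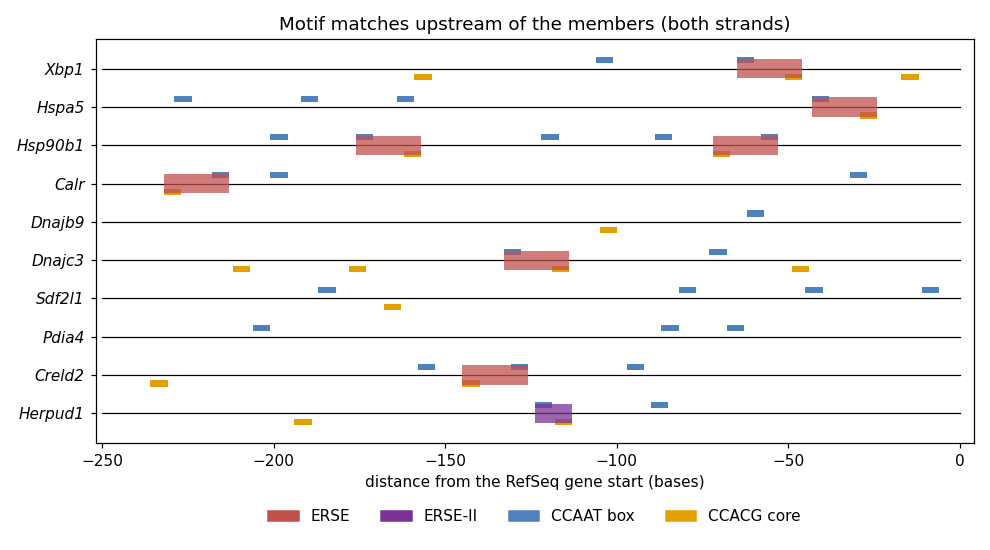
Positions of motif matches in the 250 bases before the RefSeq start of each member. The x axis is the distance from the start in bases, red and purple blocks are full ERSE and ERSE-II matches on either strand, and the thin blue and orange blocks are CCAAT and CCACG wherever they stand. ERSE blocks stand in 6 members, 2 of them in Hsp90b1, and ERSE-II in Herpud1.

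The upstream windows of Hspa5 and Creld2 are printed whole because they differ in how far the gene varied between livers, with a range over the 6 arrays of 0.72 log2 units for Hspa5 and 1.98 for Creld2. The capitals again mark the fixed letters of ERSE, here as they read on the gene's strand.
Hspa5, chr3:38452766-38453015 (+ strand): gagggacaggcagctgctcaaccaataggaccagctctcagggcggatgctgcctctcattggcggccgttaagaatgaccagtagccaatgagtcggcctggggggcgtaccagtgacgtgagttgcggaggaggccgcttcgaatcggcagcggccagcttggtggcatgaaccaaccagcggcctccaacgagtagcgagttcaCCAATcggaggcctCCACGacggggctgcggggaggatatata
Creld2, chr7:121789134-121789383 (+ strand): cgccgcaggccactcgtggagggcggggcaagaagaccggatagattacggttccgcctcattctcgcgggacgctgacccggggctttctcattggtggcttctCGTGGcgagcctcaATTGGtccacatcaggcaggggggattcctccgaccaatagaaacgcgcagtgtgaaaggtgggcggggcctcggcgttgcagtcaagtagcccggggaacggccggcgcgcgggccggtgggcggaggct
Counted from the start, the match spans positions -43 to -25 in Hspa5 and -145 to -127 in Creld2.

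The arrays and the labels were checked first. The 6 arrays correlated at r = 0.952 or more with each other over the genes tested. Albumin (Alb) and transthyretin (Ttr), both made by hepatocytes, had log2 signals of at least 14.46 and 14.64 on every array. High fat replicate 1 held exocrine pancreas RNA: the summed linear signal of 15 pancreas markers was 62876 there, 2645 and 3463 in the other high fat arrays, and 1985 to 4276 in controls. Of those 15 markers 1 value was listed at 0. High fat replicate 3 had low Xist (4.45, against 12.46 to 13.31 in the other arrays) and high Y-linked Eif2s3y (11.14, against at most 3.99). By these genes that array reads as male and the others as female, so sex was not balanced between the diets. The 3′ minus 5′ difference of the Gapdh and Actb control probe sets, a measure of RNA integrity, was 1.92 to 2.46 in high fat arrays and 2.18 to 3.06 in controls, lowest in high fat replicate 2 and next lowest in control replicate 1.

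No member differed between the maternal diets beyond the spread between livers. None of the 10 passed limma at an adjusted p under 0.05, which 4 of 10372 genes (0.0386%) passed. None had an unadjusted limma p under 0.05, as 14.1% of all genes did. Nor did any reach the looser call of an unadjusted p under 0.05 with at least 1.5-fold, which 6.71% of all genes reached. The groups overlapped in all 10, while 20.8% of all genes had groups that did not overlap. The members' median log2 change, high fat minus control, was 0.12, with 8 above 0 and 2 below, beside -0.02 over all genes tested. With 3 livers a group the 95% intervals were wide, from 0.86 log2 units across for Herpud1 to 2.82 for Sdf2l1, so differences inside them could not be detected here. Every value below is a quantile-normalized log2 signal, every change is high fat minus control on that scale with limma's standard error (SE), and every adjusted p is limma's with Benjamini-Hochberg adjustment over all 10372 genes. Since whole liver was measured, fewer cells of a type and less RNA per cell cannot be told apart.

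Xbp1, the regulator of the set, had 12.47, 13.26 and 13.30 in high fat livers, against 13.01, 12.57 and 12.69 in control livers. High fat replicate 1 was the lowest of all 6 and the other high fat livers were the highest, so the groups overlapped through that 1 array. The change was 0.26 (SE 0.26, 95% interval -0.35 to 0.87, adjusted p = 0.691). It was 0.53 (SE 0.18, adjusted p = 0.343) without high fat replicate 1, the array with pancreas RNA. Without high fat replicate 3, the array that reads as male, it was 0.11 (SE 0.28, adjusted p = 0.921). The part of sex in the Xbp1 values was not tested. Where the probe set lies relative to the spliced segment is not given, so these values do not separate spliced from unspliced Xbp1 mRNA.

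Among the general chaperones, Hspa5 had 14.31, 14.76 and 14.36 in high fat livers and 14.65, 14.04 and 14.28 in control livers. The highest array came from one diet and the next from the other, high fat replicate 2 above control replicate 1. Hspa5 was at 0.15 (SE 0.21, interval -0.34 to 0.64, adjusted p = 0.783). In the values as deposited control replicate 1 was the higher of those arrays, at 14.76, and high fat replicate 2 was at 14.54, so their order rests on the normalization. Hsp90b1, which encodes GRP94, the HSP90 chaperone of the ER, had 13.97, 14.24 and 13.91 in high fat livers, against 14.31, 13.78 and 13.85 in control livers. Its range over the 6 arrays, 0.52, was the narrowest of the members, and its change was 0.06 (SE 0.19, interval -0.38 to 0.50, adjusted p = 0.917). Calr encodes calreticulin, a lectin chaperone that binds newly made glycoproteins. Its signal was 11.88, 11.68 and 11.45 in high fat livers and 12.33, 11.55 and 11.64 in control livers, a change of -0.17 (SE 0.24, interval -0.73 to 0.39, adjusted p = 0.787). Control replicate 1 stood 0.45 above the next array.

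The partners of BiP overlapped between the diets in the same way. Dnajb9, or ERdj4, a J-domain partner that also restrains IRE1, had 11.37, 11.80 and 11.79 in high fat livers, against 12.03, 10.99 and 11.21 in control livers. All high fat livers thus lay between control replicate 1 and the other controls, and the change was 0.24 (SE 0.29, interval -0.44 to 0.92, adjusted p = 0.742). Dnajc3, known as p58IPK, a J-domain protein of the ER that inhibits PERK, had 12.45, 12.90 and 12.64 in high fat livers and 13.10, 12.21 and 12.61 in control livers. Control replicate 1 was again highest and high fat replicate 2 next, and the change was 0.02 (SE 0.25, interval -0.56 to 0.61, adjusted p = 0.978). Sdf2l1, a component of ER chaperone complexes, had 10.83, 11.58 and 10.98 in high fat livers, against 12.68, 10.48 and 10.51 in control livers. Here 1 control liver stood 1.09 above every other array while the other 2 controls were the lowest of all. Sdf2l1 was at -0.09 (SE 0.59, interval -1.501 to 1.31, adjusted p = 0.960).

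Pdia4 and Creld2 varied in the same arrays, and Herpud1 had a smaller gap in control replicate 1. Pdia4, or ERp72, a protein disulfide isomerase, had 12.95, 13.69 and 12.96 in high fat livers, against 13.87, 12.93 and 12.54 in control livers, a change of 0.09 (SE 0.37, interval -0.80 to 0.97, adjusted p = 0.938). Creld2, an ER protein with EGF-like domains, had 11.51, 12.48 and 11.82 in high fat livers and 13.06, 11.11 and 11.09 in control livers. All 3 high fat livers were above 2 of the controls and below the other, and the change was 0.18 (SE 0.56, interval -1.14 to 1.502, adjusted p = 0.917). Herpud1 is a membrane protein that assists the degradation of ER proteins. It had 13.28, 13.70 and 13.20 in high fat livers, against 13.22, 12.996 and 12.87 in control livers. It had the smallest p of the members (unadjusted 0.0835), at 0.37 (SE 0.18, interval -0.06 to 0.79, adjusted p = 0.424), and its groups met only where high fat replicate 3 lay below control replicate 1. In the values as deposited they did not overlap, the 1 such case among the members. No share of all genes was counted for the deposited values. In the normalized values 20.8% of all genes had groups that did not overlap.

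**Figure D2:**
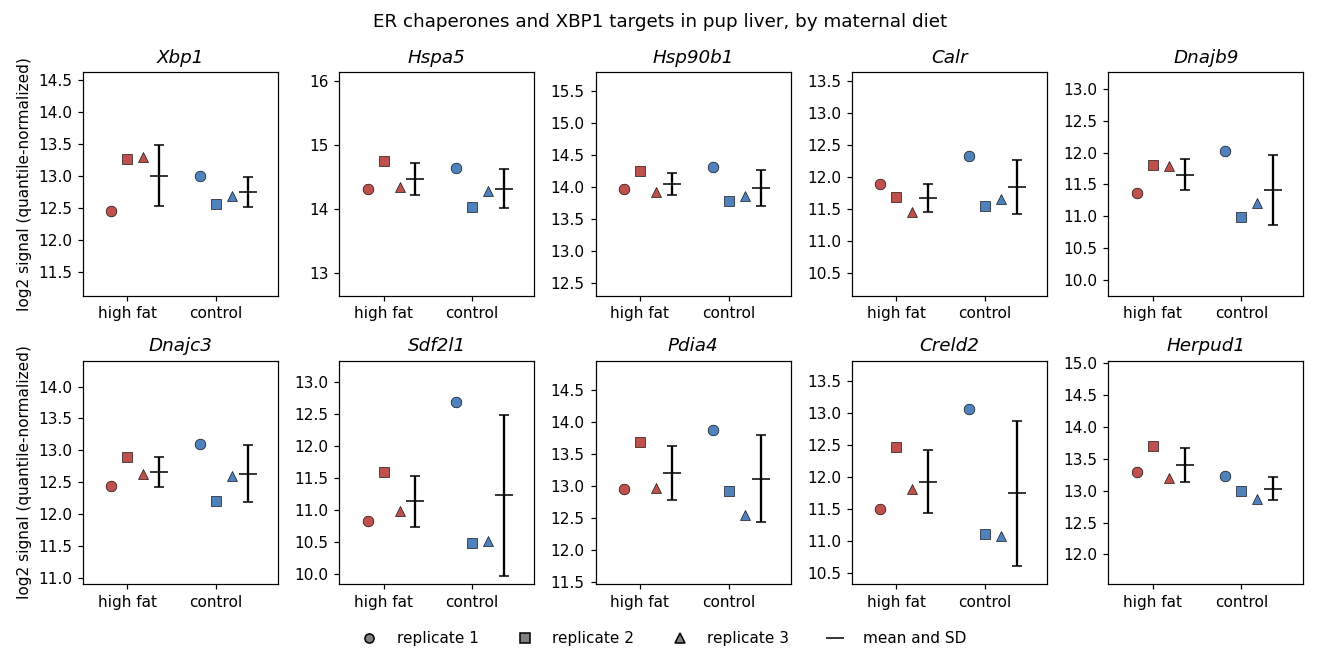
Quantile-normalized log2 signal of each member on every array. Red points are the 3 high fat livers and blue points the 3 control livers, symbols give the replicate number, the black bar is the mean with its SD (n = 3), and each panel spans the same number of log2 units. Control replicate 1, the blue circle, is the highest array in 7 of 10 panels, and the groups overlap in all 10.

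What the members shared was their order over individual livers. Control replicate 1 was the highest control for all 10 members, as it was for 33.7% of all genes tested, and the highest of all 6 arrays for 7 (8 in the values as deposited), as for 18.6% of all genes. High fat replicate 2 was the highest high fat liver for 8 of 10, against 34.1% of all genes. These 2 arrays were the top pair for 7 members and for 6.96% of all genes. Control replicates 2 and 3 were the lowest array for 5 and 3 members. The median deviation of the members from their own mean over the 6 arrays was -0.18, 0.37 and -0.04 in the high fat livers and 0.47, -0.34 and -0.26 in the control livers, while the median over all genes stayed within 0.03 of 0 on every array. The members were measured on the same arrays and are not independent of each other, so these counts describe 6 livers.

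The size of the gap in control replicate 1 differed widely between members. Sdf2l1 was 4.54-fold higher there than the mean of control replicates 2 and 3 (log2 difference 2.18) and Creld2 3.90-fold (1.96), the 10th and 20th largest such differences of 10372 genes. Pdia4 followed at 2.20-fold, then Dnajb9 at 1.91-fold, Calr at 1.66-fold and Dnajc3 at 1.61-fold. Hsp90b1 and Hspa5 were 1.41-fold and 1.40-fold higher, Xbp1 1.30-fold and Herpud1 1.22-fold. These folds describe 1 liver and have no replicate. The gap itself widens the control groups, so their SDs restate it. The control SD was 1.26 for Sdf2l1 and 1.13 for Creld2 (n = 3 each), the 62nd and 95th largest of all genes, and it exceeded the high fat SD in 8 of 10 members. The exceptions were Herpud1, with an SD of 0.27 in high fat livers and 0.18 in controls, and Xbp1, with 0.47 and 0.23.

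Without control replicate 1 the members lay above the remaining controls. All 10 changes were then positive, with a median of 0.42 (-0.02 over all genes), and in 7 of 10 the 3 high fat livers were all above both controls, which holds for 14.5% of all genes. Creld2 was at 0.84 (SE 0.30), Sdf2l1 at 0.63 (SE 0.25) and Dnajb9 at 0.55 (SE 0.19), with unadjusted p = 0.0308, 0.0465 and 0.0295 in limma. Creld2 and Sdf2l1 met the looser call, as 3.64% of all genes did upward. Neither they nor any other member passed the adjusted test (limma adjusted p = 0.356 to 0.893), nor did any of the 10366 genes, of which 1314 had an unadjusted p under 0.05. With high fat replicate 1, the array with pancreas RNA, left out as well, 9 of 10 changes were positive with a median of 0.56, 9 had groups that did not overlap (21.1% of all genes upward), and 4 met the looser call (4.98% upward), with a smallest limma adjusted p of 0.314. Control replicate 1 was singled out because it is the one that differs, so the values give how far the comparison rests on it. It was the highest control for all 10 members, against 33.7% of all genes, so leaving it out raised every change by construction. The shares over all genes are not of genes chosen this way. The intervals and p-values without that array are a description only.

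**Figure D3:**
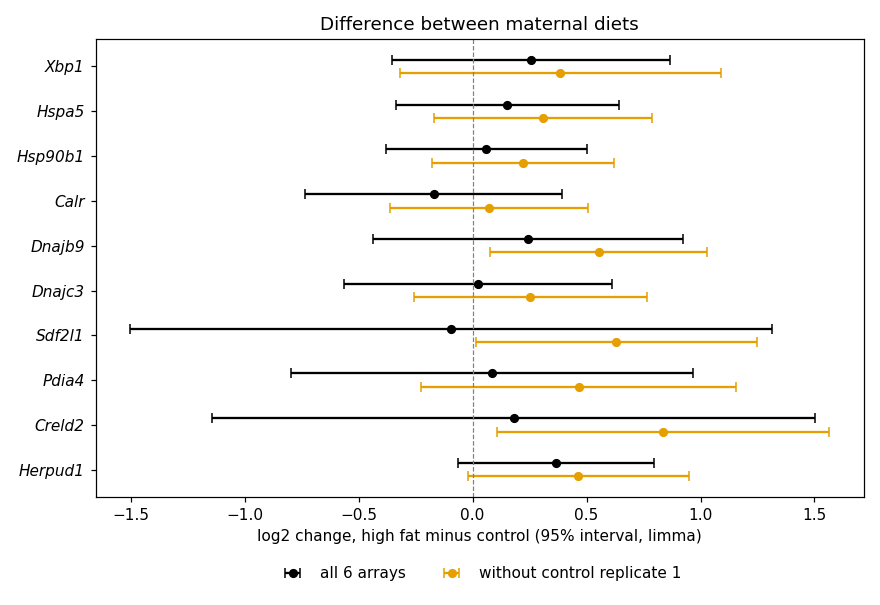
Log2 change between the maternal diets for each member, high fat minus control, with limma's 95% interval. Black points use all 6 arrays and orange points leave out control replicate 1. Every black interval spans 0, and Creld2, Sdf2l1 and Dnajb9 have orange intervals above 0. Control replicate 1 was the highest control for all 10 members, so every orange point lies to the right of its black one.

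Other libraries moved the members as well. The median change was 0.22 with high fat replicate 1 left out, -0.07 when replicate 2 of that diet was dropped and 0.15 when its replicate 3 was. Without control replicate 2 it was -0.02, and without control replicate 3 it was -0.001. With the 3′ minus 5′ difference as a covariate the median was -0.11, Creld2 was at -0.42 and Pdia4 at -0.37, and no member passed. RNA integrity was best by that measure in high fat replicate 2 and next best in control replicate 1, where the members stood high. The other arrays did not all follow that order. Control replicate 2, the lowest array for 5 members, had 2.42, against 2.46 in high fat replicate 1 and 3.06 in control replicate 3. The part of RNA integrity in the result was not tested. High fat replicate 1, the array with pancreas RNA, was highest for 0 of the 10 members, with a median deviation of -0.18; the part of that RNA in the result was not tested. Plasma cells are rich in ER chaperones too. The 5 plasma cell and B lymphocyte markers on the array summed to a linear signal of 527, 548 and 442 in high fat livers and 453, 427 and 324 in control livers, with none listed at 0. The sum was thus highest in high fat replicate 2, and among controls in control replicate 1, the arrays in which the members stood high. It was next highest over all arrays in high fat replicate 1, at 527, where the members' median deviation was -0.18. All 3 tested markers were higher in control replicate 1 than in the mean of the other controls. Among controls, Mzb1 was highest in replicate 3, at 6.64, against 6.50 in replicate 1. The part of plasma cells in the result was not tested.

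Markers of 2 further cell types were also high in control replicate 1. The 5 erythroid markers summed to 992, 603 and 961 in high fat livers and 1696, 1341 and 801 in control livers, and the 3 tested were all highest in control replicate 1. The 6 endothelial markers summed to 10192, 13643 and 12102 in high fat livers and 21123, 18393 and 20199 in control livers, with 4 of 6 highest in control replicate 1 and none of either list at 0. By diet all 6 endothelial markers were below 0, with a median of -0.70 and 4 at the looser call, which 350 of 10372 genes met downward. None of the 6 passed the adjusted test. Among controls the hepatocyte, Kupffer cell and macrophage, cholangiocyte and stellate cell sums were not highest in control replicate 1. The cholangiocyte sum was the lowest of all arrays there, at 1138. The stellate cell sum was 5419 there, against 6526 and 6228 in the other controls, and the Kupffer cell and macrophage sum 8573, against 8940 and 7038. The part of any of these cells in the members' values was not tested.

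Other genes of the secretory pathway showed the same liver more broadly. Of 24 further ER folding enzymes and co-chaperones, control replicate 1 was the highest array for 14, of 18 genes of ER-associated degradation for 10, and of 30 genes of ER translocation and early secretion for 26. These examples were picked after their values were seen. Hyou1, an HSP70-like exchange factor of BiP, had 8.91, 9.18 and 8.96 in high fat livers and 10.36, 8.63 and 8.87 in control livers, and Syvn1, the ubiquitin ligase HRD1, had 10.76, 10.85 and 10.92 in high fat livers, against 11.65, 10.51 and 10.86 in control livers. Their diet changes were -0.27 (SE 0.43) and -0.17 (SE 0.28), and both were above 0 without that array, at 0.27 and 0.15. Of the plasma proteins that pass through this pathway, 4 of 13 genes of hepatocyte secretory output were highest in control replicate 1. These probe sets lie at the bright end of the arrays, so their spread is not set against that of the members: Serpina1, at -0.12, was at -0.27 in the values as deposited, and Ttr, at -0.11, was at -0.23.

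By diet, these lists held no gene past the adjusted test. The folding list had 7 of 24 above 0 and a median of -0.08. Txndc12, a thioredoxin-like ER protein, had 11.11, 11.94 and 11.66 in high fat livers and 10.97, 10.92 and 10.69 in control livers, a change of 0.71 (SE 0.23, adjusted p = 0.276), and was the 1 gene of the list to meet the looser call. Prdx4, the ER peroxiredoxin, was at 0.42 (SE 0.15, adjusted p = 0.299) and Ero1a, the oxidase that recharges disulfide isomerases, at -0.43 (SE 0.14, adjusted p = 0.285), both with groups that did not overlap. The degradation list had 8 of 18 above 0 and a median of -0.03, with Selenos at -0.48 (SE 0.16), Aup1 at -0.14 and Edem1 at -0.26. The translocation list had 25 of 30 below 0 and a median of -0.12, and 5 had groups that did not overlap, all lower in high fat livers, as in 11.5% of all genes. Kdelr2, a receptor that returns escaped ER proteins, was at -0.48 (SE 0.16, adjusted p = 0.277), Mcfd2, a cargo receptor subunit, at -0.41 (SE 0.14) and Sec13, of the COPII coat, at -0.39 (SE 0.15). Without control replicate 1 the medians of these 3 lists were 0.08, 0.03 and -0.03.

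The sensors and the PERK branch had fewer genes highest in control replicate 1. Of 13 sensors and transducers 8 were above 0, with a median of 0.08, and control replicate 1 was highest for 2. Atf6b, a relative of ATF6, had 7.91, 7.49 and 7.80 in high fat livers, against 8.35, 8.28 and 8.26 in control livers, at -0.56 (SE 0.15, adjusted p = 0.220) with no overlap. Mbtps2, a protease that cleaves ATF6, was at 0.33 (SE 0.14), Creb3l3, a liver ER-bound factor, at 0.31 (SE 0.15), and Eif2ak3, which encodes PERK and was picked after its values were seen, at 0.52 (SE 0.28, adjusted p = 0.458). Of 13 effectors of PERK and ATF4, 7 were above 0, with a median of 0.08 and control replicate 1 highest for 2. Asns, asparagine synthetase, had 9.52, 10.23 and 9.49 in high fat livers and 7.60, 7.11 and 6.31 in control livers, at 2.74 (SE 0.36, adjusted p = 0.119). Eif4ebp1, a translation repressor, was at 0.53 (SE 0.15, adjusted p = 0.230) and Trib3 at 0.88 (SE 0.40, adjusted p = 0.385). Asns, in which the groups lay far apart, was thus unlike the 10 members, in which they overlapped.

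Heat shock chaperones outside the ER stood highest in the other high array, and were high in high fat replicate 3 too. The list is mostly cytosolic but also holds the mitochondrial Hspd1 (HSP60), at 0.29 (SE 0.15), and Hspe1 (HSP10), at 0.19 (SE 0.16). All 10 tested were above 0, with a median of 0.82, 3 met the looser call (3.34% of all genes did upward) and 6 had groups that did not overlap (9.24% upward), but control replicate 1 was highest for 0 of them. Relative to the mean of high fat replicates 1 and 3, high fat replicate 2 had a median log2 difference of 0.94 in the heat shock list, 0.46 in the PERK and ATF4 list and 0.40 in the members, against -0.10 in the folding list and -0.11 in the translocation list. Hsph1 had 12.10, 14.02 and 13.60 in high fat livers and 11.54, 11.64 and 11.78 in control livers, at 1.59 (SE 0.46, adjusted p = 0.245). Hspa1a, the inducible cytosolic HSP70, picked after its values were seen, had 7.91, 14.19 and 12.60 in high fat livers, against 7.18, 7.56 and 7.90 in control livers. Hsp90ab1 was at 0.56 (SE 0.18, adjusted p = 0.276) and Hspa4 at 0.51 (SE 0.18, adjusted p = 0.299). So in high fat replicate 2 the members stood high together with heat shock genes, and in control replicate 1 with the folding and translocation genes. In high fat replicate 3 the heat shock list was high without the members, with a median deviation of 0.36, against -0.04 for the members. The erythroid and endothelial markers given above were high in control replicate 1 too. The erythroid sum was lowest in high fat replicate 2, at 603. The endothelial sum was nearly as high in control replicate 3 (20199) as in control replicate 1 (21123).

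**Figure D4:**
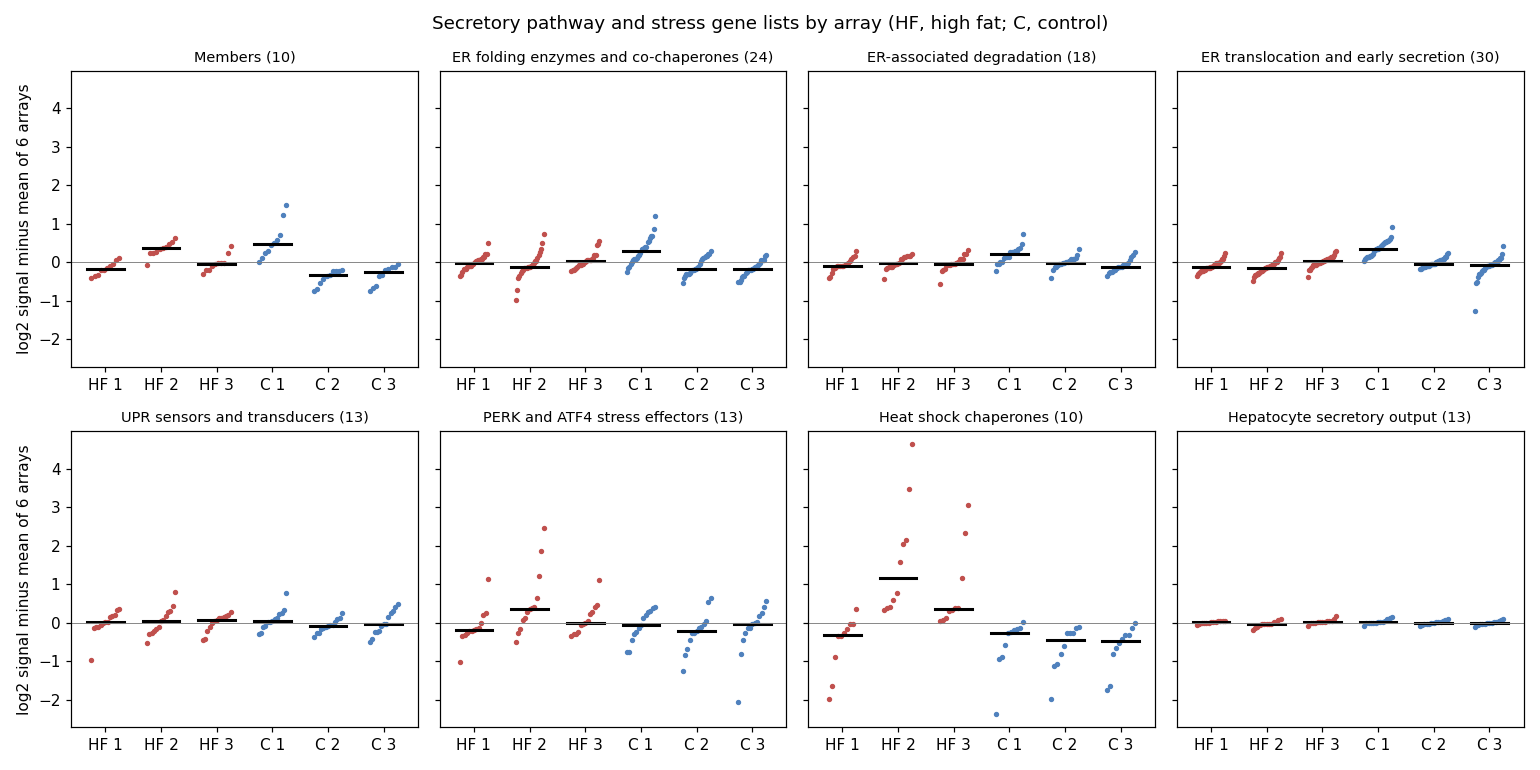
Log2 signal minus each gene's mean over the 6 arrays, for the members and 7 related lists, with the number of genes tested in brackets. Each point is a gene, the black line is the median of the list on that array, and HF and C are the high fat and control livers. The members are high in HF 2 and C 1, and the folding and translocation lists in C 1. The heat shock list is high in HF 2 and, less so, in HF 3.

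Of the 15 other genes with ERSE in their upstream window, 9 were tested, and 4 of these were highest in control replicate 1. They were Canx, the membrane-bound partner of calreticulin, Ero1b, an ER oxidase, Birc5 and Hnrnpa3. Canx and Ero1b were at -0.01 (SE 0.16) and -0.12 (SE 0.22) by diet. The gene with the largest gap by diet among the 9 was Zfand2a, at 0.86 (SE 0.48, limma adjusted p = 0.481), and the smallest p was that of Ppm1l, a protein phosphatase, at -0.76 (SE 0.13, limma adjusted p = 0.166). Genes of this group were picked after their values were seen.

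Outside all the lists, the 5 genes whose order over the 6 arrays was most like the members' mean z-score were Man1c1 and Rpia (Pearson r = 0.995 each), Gask1b (0.977), Dusp11 (0.976) and Serpina7 (0.975), ranked among all genes tested and given as a description. Serpina7, the thyroxine-binding globulin, had 12.69, 13.35 and 12.60 in high fat livers and 13.40, 12.35 and 12.30 in control livers. In all 5, control replicate 1 was the highest array and high fat replicate 2 the next, which follows from choosing them by likeness to the members. Man1c1 and Rpia had other probe sets that moved differently, with a change of -0.07 and -0.81 when all probe sets were averaged, beside 0.09 and 0.06 for the brightest.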

How the data were processed

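Liver RNA of 6 rat offspring, 3 per maternal diet, was labelled with a 3′ IVT kit and hybridised to Affymetrix arrays, as the labels' protocols state. The authors deposited log2 signals, as the values themselves show: back on the linear scale, every array has a 2% trimmed mean of 500.2. The lowest deposited log2 values, 91 to 144 of 31099 probe sets per array, are listed at 0. The sources used here do not name the software that summarized probes. Array quartiles were up to 0.22 apart, so arrays were quantile-normalized.

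Of 31042 probe sets that are not controls, 20826 name 1 gene, and 20764 of these matched a current RefSeq entry by gene ID. The brightest probe set per gene was kept. Genes below 5.83, the lowest 40% of probe sets by mean, were left out. The test between diets was the 2-sided moderated test of limma 3.58.1 (R 4.3.3). Figures used matplotlib 3.10.9. The number of arrays limits the precision.

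Members, lists and tests were chosen with earlier results of these data known. Named genes are all members, the 3 smallest p per list, the 5 most alike in pattern, and others marked as picked after their values were seen. The labels number the livers 1 to 3 within each diet and name no litter or batch; a p-value here covers only the spread between these livers, which may share a dam. Alternatives covered normalization, dim probe sets, the choice of probe set, how variances and arrays are weighted, the replicate number, RNA integrity and each array left out.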

Additional observations from a re-analysis of the deposited data

How the results depend on the processing

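No member passed an adjusted p under 0.05 in any of 17 alternatives (smallest limma adjusted p 0.314), nor did any gene of the related lists. Over all genes 1 passed with no filter on dim probe sets, none with the replicate block or the 3′ minus 5′ covariate, and 0 to 3 with 1 array left out; none passed with control replicate 1 and high fat replicate 1 left out together, a setting chosen after seeing the data. There, 4 members met the looser call, as 4.98% of all genes did upward, and the members' median was 0.56. Of the related lists 19 genes met it there, against 5 over all arrays, where 6.71% of all genes met it. Those 5 became 3 with the trend and robust variance model, 3 with the covariate and 3 to 14 with 1 array left out (14 without high fat replicate 1). The counts of the related lists under these alternatives have no share of all genes beside them and are not a result about the lists. With 1 array left out, 0 to 2 members met the looser call (2 without control replicate 1, where 3.64% of all genes met it upward).

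Of 1102 values for single genes, 51 turned sign, all from genes that did not pass. With 1 array left out Sdf2l1 ranged from -0.46 to 0.63, Creld2 from -0.16 to 0.84, Pdia4 from -0.20 to 0.46, Dnajc3 from -0.19 to 0.25, Hsp90b1 from -0.042 to 0.22, Calr from -0.31 to 0.073, Hyou1 from -0.60 to 0.27, Dnajb11 (an ER J-domain protein, also picked after its values were seen) from -0.44 to 0.17, Syvn1 from -0.42 to 0.15, Man1c1 from -0.038 to 0.32, Dusp11 from -0.19 to 0.32, Serpina7 from -0.037 to 0.55, Rpia from -0.029 to 0.21, Ins1 from -0.23 to 1.05 and Alas2 from -0.81 to 0.0034. The other members kept their sign there: Xbp1 ranged from 0.11 to 0.53, Hspa5 from 0.0074 to 0.31, Dnajb9 from 0.036 to 0.55 and Herpud1 from 0.22 to 0.46. With the covariate Creld2 was at -0.42, Pdia4 at -0.37, Dnajc3 at -0.13, Hsp90b1 at -0.086, Dusp11 at -0.20, Man1c1 at -0.11, Rpia at -0.052 and Serpina7 at -0.17. With arrays centred on their median Dnajc3 was at -0.015, Hsp90b1 at -0.0096 and Fga at -0.094, and Fga was at -0.071 as deposited. With all probe sets averaged Fga was at -0.069, Man1c1 at -0.068 and Rpia at -0.81; on the most variable probe set they were at -0.22, -0.23 and -1.69. Without both arrays named above Sdf2l1 was at 0.78, Hyou1 at 0.32, Dnajb11 at 0.29, Syvn1 at 0.20, Epcam at -0.0023 and Ins1 at -0.27. The cause was not tested.

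Livers with the same replicate number did not deviate together (r = -0.13, -0.13 and -0.14), and those with different numbers had r of 0.04 to 0.08. Deviations within a group of 3 sum to 0, so these values cannot show whether a litter or batch was shared. With the replicate block the members' median was 0.12 and no member passed.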
